A study of Mus musculus with 8 samples.

Results

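The genes of fatty acid synthesis, desaturation, elongation, activation and oxidation were followed from mouse neural stem cells into the neurons made from them. The members were every platform gene symbol of the Elovl, Fads, Scd, Acsl, Acad, Acaa, Cpt1 and Cpt2, Hadh and Fabp1 to Fabp5 families, together with Fasn, Acaca, Acacb, Acly, Echs1, Eci1 and Decr1. This gave 48 genes of 16593 on the array and 74 probes of 25697. A total of 32 genes were bright enough to be tested, and the 16 others were above background on no array. Acacb was not analysed here.

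Both cell kinds were C57BL/6 and were measured on MouseRef-8 v2.0 arrays from Illumina. The neurons (3 arrays) had been differentiated from the stem cells in N2B27 medium for 4 days, replated in Neurobasal with B27 and sorted for RedStar, a red fluorescent reporter driven by the promoter of Tau (Mapt). The neural stem cells (NSCs, 5 arrays) came from embryonic stem cells as monolayers, were kept in Euromed-N with N2, FGF2 and EGF, and are labelled negative for Tau-RedStar. Medium, growth factors, sorting and position on the chip differed between the groups together with cell type and cannot be told apart from it. No label states whether replicates were grown apart, so the p-values rest on array-to-array spread that may be technical.

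Fatty acids are built in the cytosol from citrate: Acly releases acetyl-CoA, Acaca turns it into malonyl-CoA and Fasn joins these units into palmitate. Desaturases (Scd, Fads) then add double bonds and elongases (Elovl) lengthen the chain at the endoplasmic reticulum. For breakdown, a synthetase (Acsl) attaches coenzyme A, the carnitine palmitoyltransferases (Cpt) pass the chain into the mitochondrion, and the acyl-CoA dehydrogenases (Acad) open a cycle of oxidation, hydration, oxidation and cleavage. In the rodent hippocampus, stem cell proliferation is known to depend on Fasn, and Cpt1a-dependent oxidation is known to maintain stem cells.

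Of the 32 tested members, 19 were lower in neurons, 5 were higher and 8 did not pass the test (limma, Benjamini-Hochberg adjusted p below 0.05 over all tested probes, "called" hereafter). Over all 7407 tested genes 64.6% were called, 29.2% lower and 35.4% higher, against 59.4% lower and 15.6% higher among the members. The median log2 difference, neuron minus NSC, was -0.51 for the members and 0.06 for all tested genes. For 22 members, or 68.8%, every neuron array lay on the same side of every NSC array, as it did for 61.1% of all tested genes. Called differences of at least 2-fold were 9 falls and 2 rises, while over all tested genes 11.8% fell and 10.6% rose by that much. By probe, 45 of 74 were tested, of which 25 were called lower and 6 higher, beside 63.2% called over all tested probes. No member had probes called in opposite directions. Each of the 32 members was above background on at least 2 arrays of either group. Scd1, Acsl4, Cpt1c and Fabp5 were so on 2 neuron and 5 NSC arrays. Testing needed 3 arrays, so for these genes the NSC arrays alone met the filter and the neuron arrays alone did not. The falls were called in each role except the late steps of the oxidation cycle and the binding proteins, and the called rises were Elovl4, Acsl6, Acadsb, Eci1 and Decr1.

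**Figure D1:**
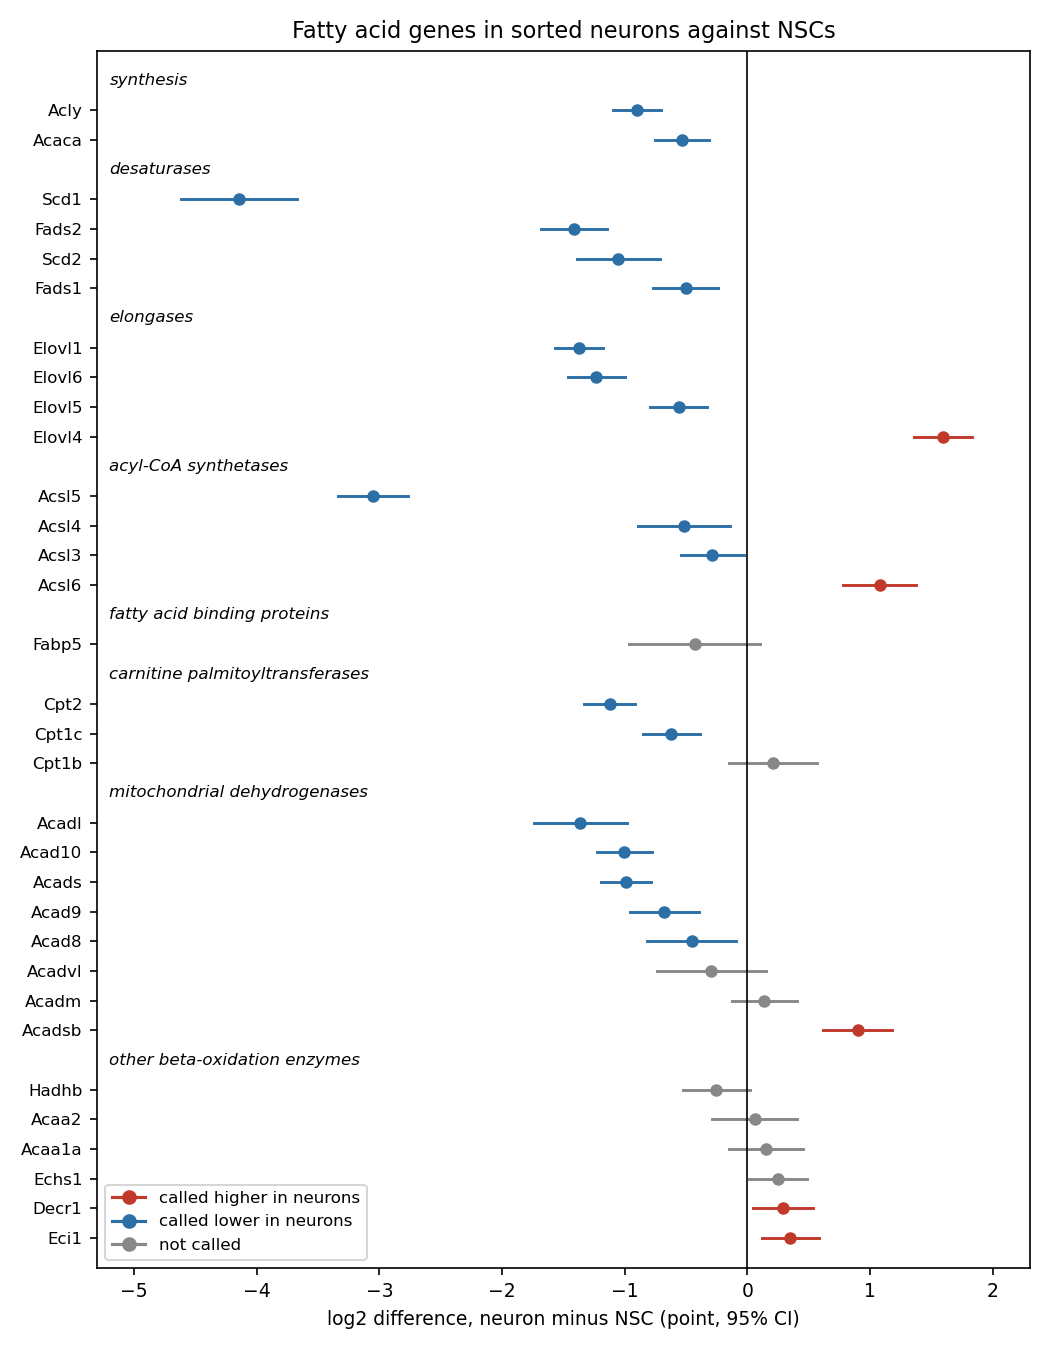
Log2 difference, neuron minus NSC, of each of the 32 tested members (points, with 95% confidence intervals as lines), grouped by role and coloured by whether limma called the gene higher, lower or neither. Scd1 at -4.15 and Acsl5 at -3.05 lie farthest left, and Elovl4 at 1.59 and Acsl6 at 1.08 farthest right.

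Values below are background-corrected, quantile-normalized log2 intensities, given for the tested probe of each gene with the highest mean. A value is set only against the same probe on other arrays. The lowest value of a detected probe lay between 5.05 and 5.16 on the neuron arrays and between 5.11 and 5.27 on the NSC arrays, so readings near 5 are close to background.

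The elongases are shown first with their promoters, because this family held both the largest called rise among the members and 3 called falls. The stretches run from 250 bases before to 50 after the annotated start, 5′ to 3′ on the gene's strand, from RefSeq on GRCm38.p6. CCAAT, the letters bound by NF-Y, or its reverse complement ATTGG stands in capitals.
Elovl4 (higher), chr9:83806256-83806555, minus strand: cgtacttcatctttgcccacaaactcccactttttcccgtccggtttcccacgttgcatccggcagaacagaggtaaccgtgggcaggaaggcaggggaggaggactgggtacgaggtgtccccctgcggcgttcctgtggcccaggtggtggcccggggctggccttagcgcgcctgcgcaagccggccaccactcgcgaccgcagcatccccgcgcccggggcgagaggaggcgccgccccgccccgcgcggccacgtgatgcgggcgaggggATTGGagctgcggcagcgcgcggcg
Elovl1 (lower), first of 2 annotated starts, chr4:118427843-118428142, plus strand: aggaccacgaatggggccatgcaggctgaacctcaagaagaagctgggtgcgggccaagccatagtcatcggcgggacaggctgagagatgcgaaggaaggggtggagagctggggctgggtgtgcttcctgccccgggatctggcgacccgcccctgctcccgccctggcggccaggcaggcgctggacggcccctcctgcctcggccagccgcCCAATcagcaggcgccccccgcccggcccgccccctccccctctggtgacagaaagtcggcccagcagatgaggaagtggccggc
Elovl5 (lower), chr9:77917115-77917414, plus strand: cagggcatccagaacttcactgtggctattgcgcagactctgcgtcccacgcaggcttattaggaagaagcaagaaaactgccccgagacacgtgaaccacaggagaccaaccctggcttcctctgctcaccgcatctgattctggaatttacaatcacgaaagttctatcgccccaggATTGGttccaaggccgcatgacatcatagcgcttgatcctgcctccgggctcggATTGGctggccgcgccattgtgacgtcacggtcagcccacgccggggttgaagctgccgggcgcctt
Elovl6 (lower), chr3:129532136-129532435, plus strand: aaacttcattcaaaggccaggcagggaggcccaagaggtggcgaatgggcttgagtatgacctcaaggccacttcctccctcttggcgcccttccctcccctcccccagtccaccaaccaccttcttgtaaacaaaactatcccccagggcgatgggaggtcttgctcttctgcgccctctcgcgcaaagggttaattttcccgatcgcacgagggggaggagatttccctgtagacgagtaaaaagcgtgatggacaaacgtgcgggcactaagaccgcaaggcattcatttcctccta

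CCAAT or ATTGG lay 26 bases after the start of Elovl4, 35 bases before that of Elovl1, and 71 and 17 bases before that of Elovl5, counted to the first base of the match. The stretch of Elovl6 held none. Of the 48 members 38 had a promoter in the table, 42 stretches in all. Scd1, Scd2, Fads1, Acad9, Acaa2, Cpt1b, Decr1, Elovl3, Fabp4 and Fabp5 had none, so no motif was searched for in them. The NF-Y letters were in 40.5% of these stretches, 37.4% of all 32851 promoters and 38.7% of the 7914 promoters of tested genes. The Sp1 letters GGGCGG were in 61.9% of member stretches, 35.7% of all promoters and 64.1% of those of tested genes. The E-box CACGTG was in 4.76%, 7.15% and 9.97%. The sterol regulatory element TCACNCCAC was in 0 of the 42 stretches, 1.24% of all promoters and 1.02% of those of tested genes. Both strands were searched, N stands for any base, and an NF-Y match overlapped another motif only in Elovl1. A match describes the letters and is not evidence of binding.

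Elovl4, which makes very long chain fatty acids in brain and retina, was 3.02-fold higher in neurons. It read 9.12, 9.11 and 9.12 on the neuron arrays, against 7.48, 7.51, 7.50, 7.78 and 7.36 on the NSC arrays. The neuron arrays were nearly identical and all lay above every NSC array (log2 difference 1.59, SE 0.11, limma adjusted p = 2.33e-07). Elovl1, which extends saturated chains, read 7.91, 7.89 and 7.93 in neurons and 9.25, 9.30, 9.34, 9.17 and 9.37 in NSCs. The groups stood apart, with neurons 2.59-fold lower (log2 difference -1.37, SE 0.09, adjusted p = 1.65e-07). Its 3 other probes were called in the same direction, at -1.26, -1.14 and -0.98. Elovl6, which lengthens palmitate to stearate, read 9.60, 9.63 and 9.65 in neurons and 10.82, 10.71, 10.76, 11.04 and 10.98 in NSCs. It was 2.35-fold lower in neurons with no overlap (log2 difference -1.23, SE 0.10, adjusted p = 1.52e-06). Elovl5, which extends polyunsaturated chains, read 12.25, 12.26 and 11.97 in neurons and 12.64, 12.63, 12.87, 12.74 and 12.70 in NSCs. It was lower without overlap but by a smaller amount, at -0.56 (SE 0.11, adjusted p = 0.000774). The probes of Elovl2, Elovl3 and Elovl7 were above background on no array.

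The steps that supply and carry out synthesis were lower in neurons where they could be measured. Acly, ATP citrate lyase, read 11.87, 11.97 and 11.97 in neurons and 12.76, 12.80, 12.91, 12.82 and 12.91 in NSCs. The 2 sets were tight and separate, with neurons 1.87-fold lower (log2 difference -0.90, SE 0.09, limma adjusted p = 5.47e-06). Acaca, acetyl-CoA carboxylase, the committed step, read 9.15, 8.94 and 8.84 in neurons and 9.42, 9.51, 9.53, 9.50 and 9.58 in NSCs. All neuron arrays lay below all NSC arrays (log2 difference -0.54, SE 0.10, adjusted p = 0.000691, and -0.31 with median scaling of the arrays). Fasn itself gave no measurement in either group: its 1 probe read 4.25, 4.30 and 4.33 in neurons and 4.24, 4.44, 4.36, 4.32 and 4.51 in NSCs, with detection p of at least 0.395. The call of synthesis genes therefore rests on Acly and Acaca.

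All 4 tested desaturases were lower in neurons. Scd1, stearoyl-CoA desaturase, which makes monounsaturated oleate and palmitoleate, had the largest fall of all members. It read 5.46, 5.39 and 5.02 in neurons and 9.11, 9.25, 9.15, 9.58 and 10.10 in NSCs. The neuron readings were close to background, with 2 of the 3 arrays above it, and NSC 5 was the highest of the stem cell arrays. The fitted difference was -4.15 (SE 0.21, limma adjusted p = 2.35e-08), or 17.7-fold lower in neurons, and -2.95 without background correction. Scd2, the isoform best known from brain, read 8.02, 8.25 and 8.23 in neurons and 9.03, 8.96, 9.29, 9.66 and 9.17 in NSCs. It too was separate between the groups but fell by less, at -1.05 (SE 0.15, adjusted p = 0.000116), and the difference between the paralogues was not tested. Scd3 and Scd4, which lie beside Scd1 and Scd2 on chromosome 19 with no other protein-coding gene between them, were above background on no array. These paralogues are alike in sequence and the probe sequences were not used here, so cross-hybridization among them was not tested.

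Fads2 and Fads1 encode desaturases of the route from linoleic and linolenic acid to long polyunsaturated fatty acids, and they are direct neighbours on chromosome 19. Fads2 read 7.96, 7.61 and 8.07 in neurons and 9.35, 9.20, 9.18, 9.31 and 9.45 in NSCs. It was 2.67-fold lower in neurons with no overlap (log2 difference -1.42, SE 0.12, limma adjusted p = 1.75e-06). Fads1 read 12.38, 12.65 and 12.90 in neurons and 13.14, 13.08, 13.09, 13.19 and 13.23 in NSCs. The neuron arrays were spread more widely but all lay below the NSC arrays (log2 difference -0.50, SE 0.12, adjusted p = 0.00339). Fads3, the third gene of that cluster, and Fads6 were above background on no array. Of the 10 tested genes of synthesis, desaturation and elongation together, 9 were lower and 1 higher in neurons, with a median of -0.98. The groups overlapped for none of them. Over all tested genes 29.2% were lower and 35.4% higher, and the groups did not overlap for 61.1%.

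**Figure D2:**
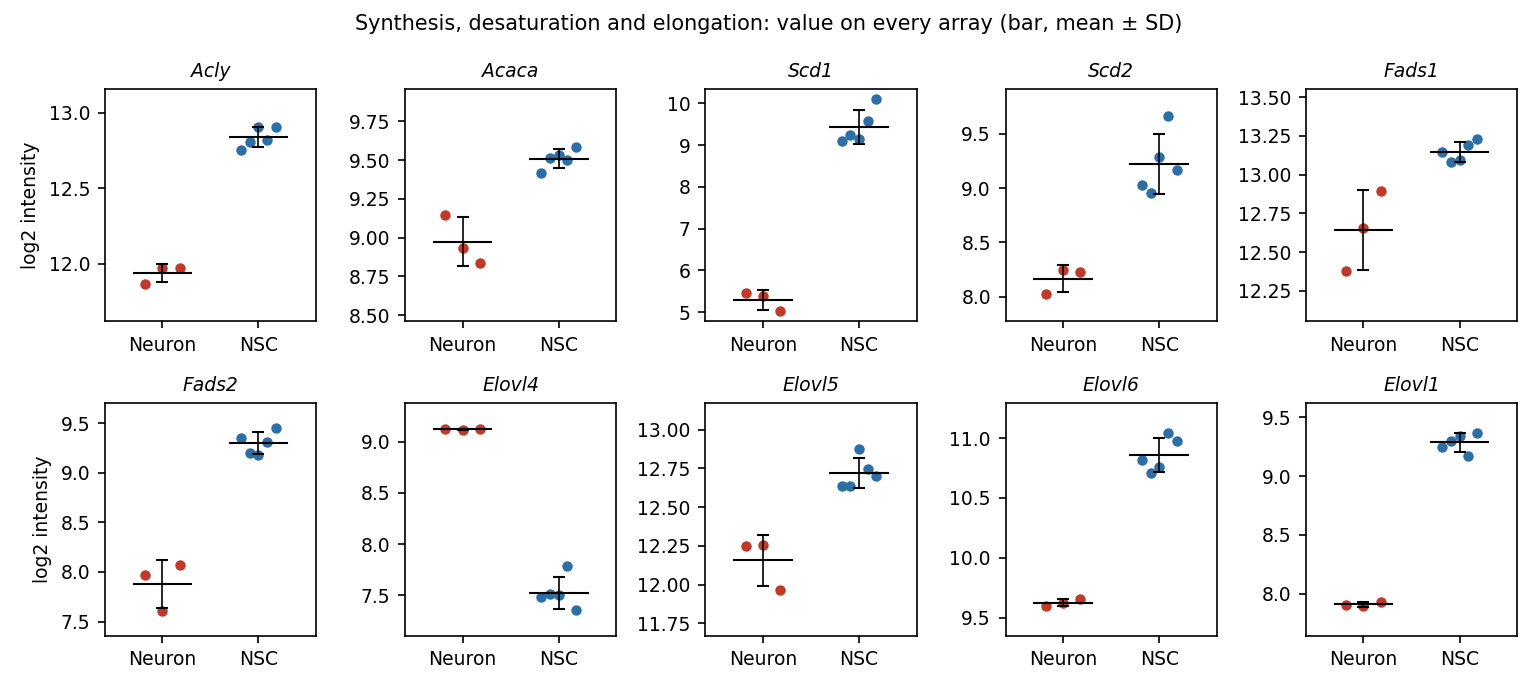
Log2 intensity of the 10 tested genes of synthesis, desaturation and elongation on every array, neurons in red at the left of each panel (n = 3) and NSCs in blue at the right (n = 5), with mean and SD as black bars. Each vertical axis has its own range, chosen around that gene's values. Elovl4 is the only panel in which the neurons are above the NSCs, and in no panel do the groups overlap.

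The acyl-CoA synthetases moved in both directions. Acsl5, which activates long-chain fatty acids, had the second largest fall among members: it read 7.18, 6.97 and 6.70 in neurons and 9.94, 9.999, 10.18, 9.79 and 10.10 in NSCs. The groups were far apart, with neurons 8.30-fold lower (log2 difference -3.05, SE 0.13, limma adjusted p = 4.50e-09). Acsl6, the brain-enriched synthetase that prefers docosahexaenoic acid, was higher, on its only probe above background on any array. It read 6.68, 6.56 and 6.67 in neurons and 5.92, 5.48, 5.54, 5.59 and 5.26 in NSCs, with no overlap (log2 difference 1.08, SE 0.14, adjusted p = 3.70e-05, and 0.58 without background correction). Acsl4, which prefers arachidonic acid, likewise had no other probe above background. It read 5.21, 4.86 and 5.35 in neurons and 5.82, 5.91, 5.39, 5.86 and 5.32 in NSCs. These readings were dim and overlapped (log2 difference -0.52, adjusted p = 0.0198, but -0.23 without background correction and not called without Neuron 2, at -0.37 with adjusted p = 0.107). Acsl3 was at the threshold, at -0.29 (95% confidence interval -0.54 to -0.03, adjusted p = 0.04999). Leaving out NSC 1, 3, 4 or 5, or Neuron 2 or 3, ended that call (adjusted p = 0.0534 to 0.211), and the difference was -0.08 with median scaling and -0.05 when its 2 tested probes were averaged.

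Among the fatty acid binding proteins of the rule, carriers of fatty acids in the cytosol, Fabp5 was measurable and the other 4 were above background on no array. Fabp5 had 5.16, 5.64 and 6.16 in neurons and 6.47, 5.94, 5.51, 6.32 and 6.17 in NSCs. The groups overlapped widely and the difference was not called at -0.43 (95% confidence interval -0.97 to 0.11, limma adjusted p = 0.144). It was called without NSC 3 (-0.57, adjusted p = 0.0413) and without Neuron 3 (-0.68, adjusted p = 0.0359), so single arrays decided it.

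Of 3 tested carnitine palmitoyltransferase genes, 2 were lower in neurons and 1 was not called, beside 29.2% lower among all tested genes. Cpt2, the carnitine palmitoyltransferase of the inner membrane, read 7.04, 6.94 and 7.07 in neurons and 8.20, 8.16, 8.25, 8.06 and 8.02 in NSCs. It was 2.18-fold lower in neurons with no overlap (log2 difference -1.12, SE 0.09, limma adjusted p = 1.46e-06). Cpt1c, the neuronal isoform found at the endoplasmic reticulum, read 5.37, 5.12 and 5.07 in neurons and 5.79, 5.81, 5.80, 5.69 and 5.95 in NSCs. It was lower in these neurons (log2 difference -0.62, SE 0.10, adjusted p = 0.000333), on readings close to background that shrank to a difference of -0.27 without background correction. Cpt1b, the muscle isoform, was not called at 0.21 (95% confidence interval -0.15 to 0.56, adjusted p = 0.283), but was without Neuron 1 (0.40, adjusted p = 0.0398). Cpt1a, the widespread outer membrane isoform, had 1 probe, which read 4.33, 4.52 and 4.59 in neurons and 4.36, 4.81, 4.54, 4.37 and 4.67 in NSCs. It was above background on no array, so the step known for its role in stem cells was not measured here.

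Of 8 tested acyl-CoA dehydrogenases, 5 were lower in neurons, 1 was higher and 2 were not called. Among all tested genes 29.2% were lower and 35.4% higher. Acadl, the long-chain enzyme, read 6.60, 6.08 and 5.81 in neurons and 7.19, 7.61, 7.69, 7.61 and 7.52 in NSCs, a separate pair of sets (log2 difference -1.36, SE 0.17, limma adjusted p = 4.10e-05, and -0.89 without background correction). Its second tested probe gave -1.91. Acad10 read 5.47, 5.52 and 5.51 in neurons and 6.55, 6.52, 6.57, 6.28 and 6.60 in NSCs. The sets were separate (log2 difference -1.003, SE 0.10, adjusted p = 5.94e-06, and -0.53 without background correction), and its second tested probe was called lower too, at -0.81. Acad10 and Acad12 are close paralogues and direct neighbours on chromosome 5, and cross-hybridization between their probes was not tested. Acads, the short-chain enzyme, was lower by -0.99 and -1.16 on its 2 probes, both called. Acad9, which also serves the assembly of respiratory complex I, was lower at -0.68 on the brighter probe (adjusted p = 0.000739, and -0.40 without background correction), while the other probe gave -0.20 and was not called. Acad8, which acts on valine rather than on fatty acids, was called at -0.46 with overlapping groups (adjusted p = 0.0310). Leaving out NSC 1, 2, 4 or 5, or Neuron 2 or 3, ended that call (adjusted p = 0.0530 to 0.168, the difference being -0.27 without Neuron 3), as did median scaling (-0.25). The second tested probe of Acad8 gave -0.18 and was not called (adjusted p = 0.346), nor was the mean of both probes at -0.32 (adjusted p = 0.0602).

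The exceptions among the dehydrogenases were Acadsb, Acadvl and Acadm. Acadsb, which acts on short branched chains from isoleucine, read 7.30, 7.46 and 7.29 in neurons and 6.19, 6.56, 6.29, 6.51 and 6.71 in NSCs. It was 1.86-fold higher in neurons with no overlap (log2 difference 0.90, SE 0.13, limma adjusted p = 9.95e-05). Acadvl, the very long chain enzyme, was not called at -0.29 (95% confidence interval -0.74 to 0.15, adjusted p = 0.221), but was without NSC 3 (-0.43, adjusted p = 0.0445). Acadm, the medium-chain enzyme, was not called on its brighter probe at 0.14 (95% confidence interval -0.13 to 0.41), while its dimmer probe was called higher at 0.69 (adjusted p = 0.00395), as was the mean of both at 0.41 (adjusted p = 0.0117). Acad12 was above background on no array.

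The later enzymes of the cycle had differences of 0.35 or less in size. Of 6 tested, 2 were slightly higher in neurons, 4 were not called and 0 were lower, with a median of 0.20. The shares among all tested genes were 35.4% higher and 29.2% lower. Eci1, which shifts double bonds of unsaturated chains, read 9.11, 8.85 and 8.79 in neurons and 8.72, 8.59, 8.52, 8.50 and 8.51 in NSCs, close together but not overlapping (log2 difference 0.35, SE 0.11, limma adjusted p = 0.0137). The call was lost without Neuron 1 (0.25, adjusted p = 0.0762), and the difference was 0.59 with median scaling. Decr1, which reduces double bonds of unsaturated chains, read 5.89, 5.80 and 5.76 in neurons and 5.47, 5.30, 5.64, 5.51 and 5.73 in NSCs. The gap between the groups was narrow (log2 difference 0.29, adjusted p = 0.0425), leaving out NSC 1, 2 or 4 or any 1 neuron array ended the call (adjusted p = 0.0666 to 0.132), and without background correction the difference was 0.13.

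Under the processing used for these values, the core of the cycle was not called in either direction. The hydratase Echs1 was at 0.25 (95% confidence interval 0.01 to 0.48, limma adjusted p = 0.0644). It was called higher without NSC 4 (0.29, adjusted p = 0.0443), without Neuron 2 (0.33, adjusted p = 0.0336) and with median scaling (0.45). Skipping background correction, which gives the authors' log2 values, also led to a call (0.23, adjusted p = 0.0327). So did raising the offset to 50 (0.24) and a trended, robust variance model (0.25, adjusted p = 0.0339). The trifunctional protein subunit Hadhb was at -0.25 (95% confidence interval -0.53 to 0.02, adjusted p = 0.0942), and was called without NSC 3 (-0.32, adjusted p = 0.0393). The thiolases Acaa2, of the mitochondrion, and Acaa1a, of the peroxisome, were at 0.06 (95% confidence interval -0.29 to 0.40) and 0.15 (95% confidence interval -0.15 to 0.45). Acaa1a has a near-identical copy, Acaa1b, so its reading is uncertain. All 4 tested probes of Acaa2 lay between 0.05 and 0.13 and none was called. Hadh and Acaa1b were above background on no array. Over the tested genes of carnitine transfer and oxidation, 7 of 17 were lower, 3 higher and 7 not called, with a median of -0.25. Over all tested genes 29.2% were lower and 35.4% higher. The 17 include Acad8 and Acadsb of valine and isoleucine breakdown, Acaa1a of the peroxisome and Cpt1c of the endoplasmic reticulum. They lack Cpt1a and Hadh, which were not measured.

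**Figure D3:**
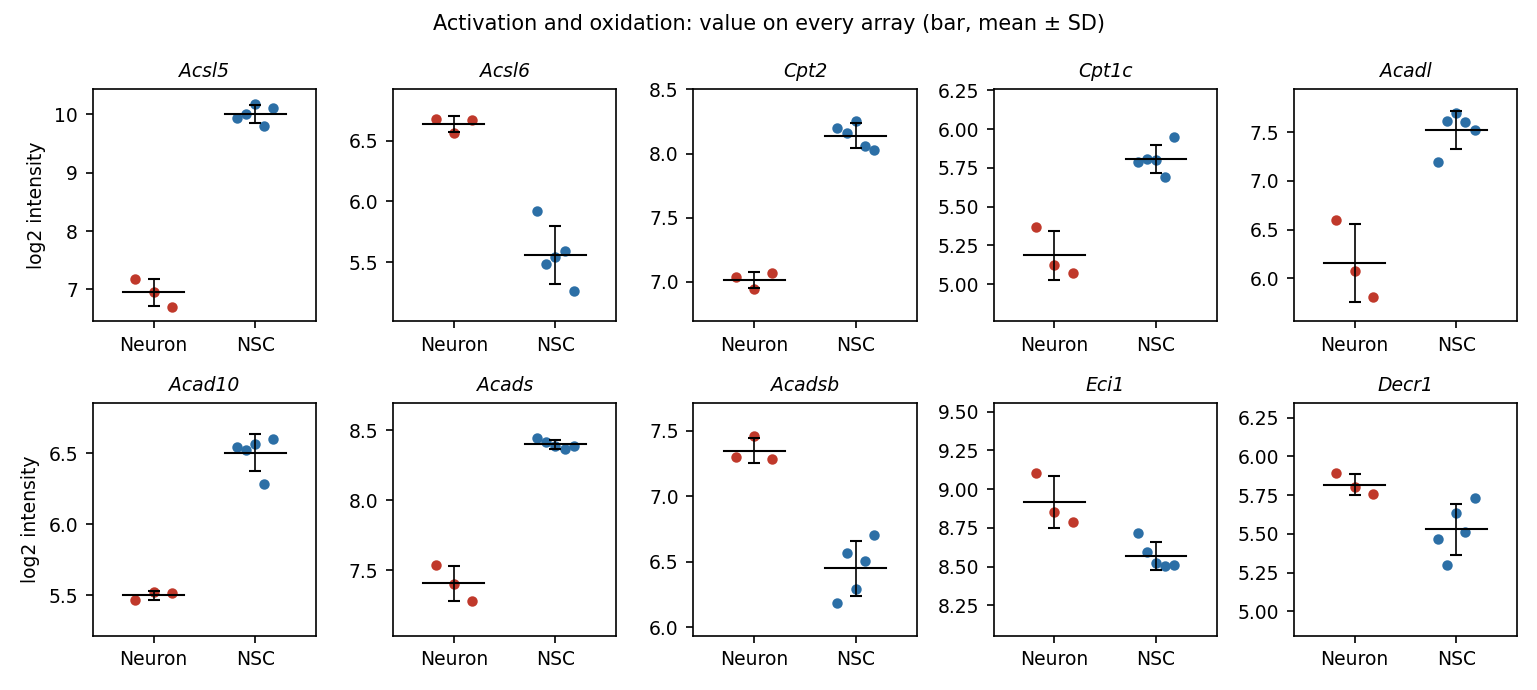
Log2 intensity of 10 genes of activation and oxidation on every array, neurons in red at the left of each panel (n = 3) and NSCs in blue at the right (n = 5), with mean and SD as black bars. Each vertical axis has its own range, chosen around that gene's values. Acsl6, Acadsb, Eci1 and Decr1 are above their NSC arrays in neurons, and the other 6 genes below. All 10 are genes whose groups do not overlap. The tested genes with overlapping groups, Acsl4, Cpt1b, Acad8, Acadvl, Acadm, Echs1, Hadhb, Acaa2 and Acaa1a, are not shown.

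Other genes of fatty acid metabolism were grouped in 7 lists outside the rule. Of their 67 tested genes, 18 were higher in neurons (26.9%, beside 35.4% of all tested genes), 27 were lower (40.3%, beside 29.2%) and 22 were not called, with a median of -0.12. Of these 67, 4 were above background on NSC arrays alone and 1 on neuron arrays alone. The supply of acetyl-CoA, NADPH and malonyl-CoA was the list with the lowest median, at -1.35: 5 of its 6 tested genes were lower and 1 higher. Thrsp, also called Spot14, a regulator of lipogenesis known to mark quiescent adult neural stem cells, read 4.39, 4.42 and 4.46 in neurons and 7.55, 7.38, 7.45, 7.40 and 6.92 in NSCs. It was above background on every NSC array and no neuron array, so only a bound exists: at least 4.67-fold lower in neurons (limma adjusted p = 9.89e-09). Such bounds depend on the background step: without it the fitted difference was -1.61 for Thrsp, which is less than the bound. Bounds of this kind set the mean of the detected group against a floor in the other: on each array, the lowest signal of any detected probe, or the probe's own value where that is higher. The malic enzyme gene Me1, a source of NADPH, was lower at -2.25 (-1.38 without background correction), and Mlycd, which removes malonyl-CoA, was higher at 0.30 (adjusted p = 0.0405). Leaving out NSC 1, 3 or 5, or Neuron 1 or 2, ended the Mlycd call (adjusted p = 0.0650 to 0.132), and its difference was 0.49 with median scaling and 0.17 without background correction.

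Of 11 tested regulators 6 were lower in neurons, 4 were higher and 1 was not called, with a median of -0.41. Among all tested genes 29.2% were lower and 35.4% higher. Ppargc1a, a coactivator of mitochondrial genes, was at least 3.72-fold lower, on a probe detected on all NSC arrays and no neuron array. Its relative Ppargc1b was at least 2.37-fold higher, on a probe that 3 of 3 neuron arrays and 0 of 5 NSC arrays detected. Without background correction the differences were -1.20 for Ppargc1a and 0.81 for Ppargc1b. Srebf1, the transcription factor of lipogenic genes, was called lower, but 2 of 3 neuron arrays were not above background, so the size of its fall is uncertain (fitted log2 difference -1.89, limma adjusted p = 1.73e-06, and -0.97 without background correction). Ppara, Ppard, Pparg, Nr1h3, Mlxip, Mlxipl and Mbtps2 were above background on no array.

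Carnitine and electron transfer genes had 5 lower, 1 higher and 4 not called of 10 tested, with a median of -0.45. The shares of all tested genes, 29.2% lower and 35.4% higher, stand beside both lists of this paragraph. Slc25a20, the carrier that exchanges acylcarnitines across the inner membrane between the steps of Cpt1 and Cpt2, was at least 3.66-fold lower in neurons, with no neuron array above background (-1.22 on the log2 scale without background correction). Ivd, a dehydrogenase of leucine breakdown, was lower at -1.30, and the plasma membrane carnitine transporter gene Slc22a5 was higher at 1.28 (SE 0.11, limma adjusted p = 1.81e-06). The other synthetases, thioesterases and binding proteins had 8 lower, 3 higher and 3 not called of 14, with a median of -0.45. Acsbg1 was at least 23.2-fold lower, with no neuron array above background, and its difference was -3.37 on the log2 scale without background correction, less than that bound. The thioesterase gene Acot1 was lower at -2.57, while the peroxisomal thioesterase gene Acot8 was higher at 0.79. Acot1 has a close paralogue, Acot2, and cross-hybridization between them was not tested.

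The 3 remaining lists had medians nearer 0 or above it. Their counts stand beside 35.4% higher and 29.2% lower among all tested genes. Of 7 tested partners of elongation and of mitochondrial synthesis, 2 were higher, 1 lower and 4 not called (median -0.06). Hsd17b12, the reductase of the elongation cycle, was lower at -1.08, and the dehydratase genes Hacd3 and Hacd1 were higher at 0.62 and 0.36. Of 7 peroxisomal genes, 3 were higher, 0 lower and 4 not called (median 0.01), led by the oxidase gene Acox3 at 0.84 (0.52 without background correction) and the import receptor gene Pex5 at 0.49. Of 12 genes of triglyceride storage and phospholipid acylation, 4 were higher, 2 lower and 6 not called (median 0.24). The phosphatidate phosphatase gene Lpin1 was higher at 1.19 and the acyltransferase gene Agpat4 at 0.93, and Lpcat3, which puts polyunsaturated chains into phospholipids, was lower at -1.10.

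**Figure D4:**
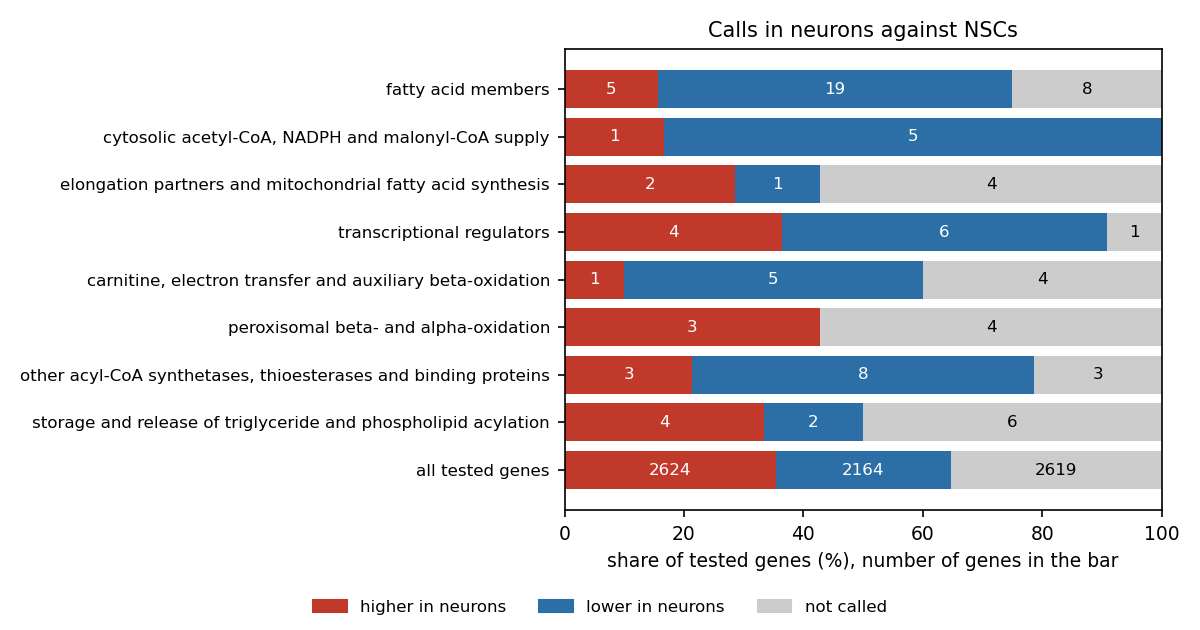
Share of tested genes called higher in neurons (red), lower (blue) or neither (grey), for the fatty acid members in the top row, the 7 other lists below and all tested genes in the bottom row, with the number of genes in each part of a bar. The members have 19 of 32 lower and 5 higher, and all tested genes 2164 lower and 2624 higher of 7407.

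Markers of cell identity also differed between the groups. Linear intensities were summed over the tested markers of a type. All 5 tested neuron markers were higher in neurons (sums of 4864 to 6729 in neurons and 2039 to 3086 in NSCs, most of it Map2). Mapt, Dcx and Rbfox3 were detected on 3 of 3 neuron arrays and 0 of 5 NSC arrays. They were at least 17.1-fold, 13.7-fold and 13.0-fold higher in neurons, in that order. Because the sort used a reporter driven by the Mapt promoter, the rise of Mapt is not an independent marker of identity. Tubb3, Stmn2 and Snap25 were above background on no array. Of 7 neural stem cell markers 5 were lower, 1 higher and 1 not called. The sums were 6315 to 6885 in neurons and 16987 to 18398 in NSCs, most of it Slc1a3. Sox2 was the higher marker, at 0.37 (limma adjusted p = 0.0253), and Nes was not called at -0.16. Of 5 astrocyte markers 4 were lower and 1 not called (822 to 913 in neurons and 4827 to 5547 in NSCs), with Gfap, Aqp4 and Mlc1 above background on no array. Of 8 oligodendrocyte lineage markers 7 were higher and 1 not called (16224 to 17373 in neurons and 10097 to 13242 in NSCs, most of it Olig1), with Mbp and Mog above background on no array. Of these 7, Gpr17, Fa2h, Pdgfra and Ugt8a were detected on 3 of 3 neuron arrays and 0 of 5 NSC arrays. They were at least 8.25-fold, 4.81-fold, 4.04-fold and 1.53-fold higher in neurons, in that order. Acsbg1 stands in the astrocyte list and Fabp7, lower at -1.65, in the stem cell list, and both also count among the synthetases, thioesterases and binding proteins. The part of other cell types in the differences of the fatty acid genes was not tested. Of 5 pluripotency genes the 2 tested were lower (66.7 to 79.9 in neurons and 137 to 147 in NSCs), and Pou5f1, Nanog and Zfp42 were above background on no array. Microglial and endothelial lists had 1 tested gene each, neither called, with Ptprc, Cx3cr1, Pecam1 and Cdh5 above background on no array. In such bulk RNA, fewer cells of a type and less RNA per cell cannot be told apart.

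The arrays were alike in quality. Median signals were 80.6 to 84.3 on the neuron arrays and 80.3 to 84.7 on the NSC arrays, and 38.0% to 39.7% and 36.5% to 38.7% of probes were detected. The median SD of a tested member was 0.17 in neurons (n = 3) and 0.15 in NSCs (n = 5). The widest spreads were those of Fabp5 in neurons (SD 0.50) and Scd1 in NSCs (SD 0.41).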

How the data were processed

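Per probe and array, the authors deposited an averaged bead intensity, unnormalized, and a detection score, a fraction from 0 to 1. The detection p here is 1 minus that score. The authors' deposited log2 values differ from the quantile-normalized log2 signal by at most 5.00e-09, and limma is named, with no version, per the submitters' processing notes. The scanning program and its version are not given in the sources used here.

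Signals were processed with neqc in limma 3.58.1 (R 4.3.3): background from the detection p, an offset of 16, quantile normalization and log2. Probes with detection p below 0.01 on at least 3 of 8 arrays were tested, 10499 of 25697; 1719 of all probes have no gene symbol. A linear model with group as its term (lmFit, eBayes) was fitted to all of them and adjusted by Benjamini-Hochberg over them, threshold 0.05. A gene is its tested probe with the highest mean. All 48 members were found in RefSeq's gene table by gene identifier. Simulated signals with 200 genes changed among 8766 tested gave recoveries of 78% at 1.5-fold and 100% at 2-fold. Of the simulated calls, 6.63% were unchanged genes. The simulation changed only genes detected on every NSC array, in equal numbers up and down. In the data 64.6% of tested genes were called, so these percentages need not hold for those calls or for dim members. The number of arrays limits the precision.

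Values on every array are given for the 2 called members with the largest rise and fall in each role, and for Fasn, Cpt1a and Thrsp; in each list 2 called genes of the majority direction and 1 of the other are named. Values of Scd2, Fads1, Elovl5 and Fabp5, the markers named singly and Fabp7 were added after their values were seen. The members and lists were chosen with earlier results of these data known. Alternatives were other background corrections, scalings, filters, variance models and probe rules, array weights, a block for the replicate number, and the omission of each array in turn.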

Additional observations from a re-analysis of the deposited data

Results flagged for a closer look

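Dixon's criterion was applied to 52 genes, the 32 tested members and the 20 genes of the pathway lists that were named for their change. Markers of cell identity other than Acsbg1 were not checked. In 5 of the 52, the gap from 1 NSC array to the nearest other was too large a part of the 5 arrays' range. By chance about 1 group in 20 is flagged. The 3 neuron arrays were too few for this check. Acad10 read 6.28 on NSC 4, with the other NSC arrays between 6.52 and 6.60. Acad8 read 7.03 on NSC 3, with the others between 7.36 and 7.45. Thrsp read 6.92 on NSC 5, with the others between 7.38 and 7.55. Acot1 read 12.23 on NSC 2, with the others between 12.52 and 12.57. Acot8 read 8.92 on NSC 3, with the others between 8.60 and 8.68. For Acad10, Thrsp, Acot1 and Acot8 every NSC array still lay on the same side of every neuron array, and for Acad8 the groups overlapped.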

How the results depend on the processing

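Of the 24 called members, 19 kept their call under each of the 19 alternatives in which they were tested, and 0 changed sign; the authors' log2 values and the omission of background correction count there separately but are the same values. The others were Acsl3, Acsl4, Acad8, Eci1 and Decr1, whose differences were 0.52 or less in size. The count of lower members ranged from 16 to 21 when 1 array was left out and that of higher members from 4 to 5; for the other pathway genes these were 25 to 29 lower and 15 to 19 higher. With the replicate number as a block, 18 members were lower and 3 higher, Eci1 (0.30, adjusted p = 0.0617), Decr1 (0.35, adjusted p = 0.0559) and Acsl3 (-0.34, adjusted p = 0.0594) losing their calls. The deviations of same-numbered arrays correlated at -0.02 to 0.01. With so few arrays this cannot show whether same-numbered arrays shared a culture or a day, which no label states. Acaa2, not called at 0.06, changed sign with cyclic loess (-0.037), without NSC 3 (-0.011) and without Neuron 1 (-0.089), in each case without a call; the cause was not tested. Median scaling moved the median of all tested genes from 0.06 to 0.23 and that of the members from -0.51 to -0.37, with 17 members lower and 6 higher, and the share of higher among all called genes from 54.8% to 66.1%. Cyclic loess moved that share to 49.8% and the members' median to -0.58. Without background correction the members' median was -0.29, and with an offset of 50 it was -0.36. Signal over background limits Scd1, Cpt1c, Acsl4 and Fabp5, each detected on 2 of 3 neuron arrays.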
